A study of Mus musculus with 2 samples.

Results

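The regions described here are peaks of DNase I accessibility that lie far from genes: their midpoint falls outside every annotated gene of GENCODE M21 and over 100 kb from every annotated transcript start of a protein-coding gene. They are named far peaks below. Distances are to that start throughout unless the gene's end is named, so a region past the end of a long gene can lie close to the gene itself: of the 10368 far regions matched between libraries, 92 lay within 10 kb and 1269 (12.2%) within 100 kb of a protein-coding gene, with a median of 204 kb. On chromosomes 1 to 19 there were 15645 far peaks among 128556 peaks in library 1 and 15362 among 136115 in library 2. The 2 libraries come from left cerebral cortex of female B6CASTF1/J mice, a first-generation cross of C57BL/6J and CAST, aged 18 to 20 months, and form 1 group with no other genotype, treatment or time. The labels give both libraries the same donor identifier but separate tissue samples, so values are given per library or as a mean with its SD (n = 2), and no test over samples was possible. The SD may therefore be technical. The SD and the 95% intervals (exact binomial, over peaks) do not cover the sequencing depth, which is unknown because the files hold no read counts.

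DNase I cuts DNA where nucleosomes leave it bare, and sequencing the cuts maps promoters, enhancers and insulators without the need to know which protein is bound. A footprint is a short stretch inside such an open region that is cut less than its surroundings, as happens under a bound transcription factor. Enhancers can lie very far from the gene they act on, and long stretches without genes, known as gene deserts, often flank genes that control development or neuronal identity, so the nearest gene is a position and not a proven target. The tissue holds many cell types, and a weak peak in few cells cannot be told apart from a less open site in many. The labelled tissue was checked at promoters: all 5 marker genes of excitatory neurons, 4 of 5 of astrocytes and 3 of 5 each of inhibitory neurons and oligodendrocytes had a peak within 500 bases of a start in both libraries, against 1 of 5 for microglia, 2 of 5 for endothelial cells and none of 4 each for liver and muscle. Library 2 alone had 4 of 5 endothelial, 2 of 5 microglial and 1 of 4 liver genes. Of all 20807 autosomal protein-coding genes, 64.9% had such a peak in both libraries.

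The sequences of 6 far regions found in both libraries show what these sites look like. The first 5 were picked by signal rank among those with unique sequence, over 1 kb from any annotated start, that hold the motif named. The E-box region is not the strongest of its kind: the stronger AP-1 window also holds E-box matches, CAGATG, left unmarked. That window is printed only under AP-1. The last is the one farthest from a protein-coding start among regions with unique sequence. Each is the 200-base window centred on the library 1 peak, plus strand of GRCm38 (mm10), and capitals mark matches on either strand to the consensus of the factor named.
CTCF match, chr4:9135901-9136100, 133 kb upstream of Clvs1: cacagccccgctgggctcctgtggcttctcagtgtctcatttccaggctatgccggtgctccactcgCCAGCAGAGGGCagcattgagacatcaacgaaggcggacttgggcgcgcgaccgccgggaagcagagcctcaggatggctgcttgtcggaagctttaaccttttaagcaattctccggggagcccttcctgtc
AP-1 matches, chr10:126511611-126511810, 390 kb downstream of Atp23: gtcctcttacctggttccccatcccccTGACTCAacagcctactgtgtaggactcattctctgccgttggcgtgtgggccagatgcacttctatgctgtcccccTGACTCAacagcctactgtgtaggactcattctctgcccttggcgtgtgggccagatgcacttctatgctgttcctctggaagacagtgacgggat
RFX matches, chr2:21918341-21918540, 309 kb from Myo3a: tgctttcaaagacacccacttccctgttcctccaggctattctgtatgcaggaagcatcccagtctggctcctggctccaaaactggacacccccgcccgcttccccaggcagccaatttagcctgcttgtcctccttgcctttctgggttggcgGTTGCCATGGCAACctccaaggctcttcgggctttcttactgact
E-box matches, chr2:168440941-168441140, 111 kb downstream of Nfatc2: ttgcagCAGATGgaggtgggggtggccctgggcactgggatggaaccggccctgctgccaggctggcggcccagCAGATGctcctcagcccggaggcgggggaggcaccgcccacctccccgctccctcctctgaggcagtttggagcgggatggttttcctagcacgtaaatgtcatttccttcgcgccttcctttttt
MEF2 match, chr5:112094011-112094210, 157 kb from Cryba4: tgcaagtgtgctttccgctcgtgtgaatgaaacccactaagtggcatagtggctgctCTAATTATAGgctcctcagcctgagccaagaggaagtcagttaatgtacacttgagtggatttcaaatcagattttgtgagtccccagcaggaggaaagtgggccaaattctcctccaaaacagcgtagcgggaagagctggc
No motif searched, chr14:91289121-91289320, 2.60 Mb downstream of Pcdh9: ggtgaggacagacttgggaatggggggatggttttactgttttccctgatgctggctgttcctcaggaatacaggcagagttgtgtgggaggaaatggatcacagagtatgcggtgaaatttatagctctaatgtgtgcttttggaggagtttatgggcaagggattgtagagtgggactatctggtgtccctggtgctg

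The CTCF window had a signal of 5.70 in library 1 and 6.95 in library 2, and its match to the insulator protein CTCF lay in a footprint in both. In the AP-1 window, the site of Fos and Jun dimers occurs 2 times, and 1 of the 2 matches lay in a footprint in each library. The 2 matches open 2 near-identical stretches of sequence, each of which also holds CAGATG. Its signal was 6.01 and 7.53. The RFX window reads as a palindrome matched on both strands, with both matches in footprints in either library and a signal of 4.41 and 4.47. The E-box window, at 4.72 and 5.11, had 1 of its 2 matches in a footprint in each library. The match to MEF2, a family of factors active in neurons, lay outside every footprint, although that peak overlapped 2 footprints in library 1 and 4 in library 2 and had a signal of 1.42 and 1.51. The farthest region was weak in both libraries, with a signal of 0.204 and 0.265.

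Far peaks were few for the space they lie in. The stretches that satisfy the rule cover 636 Mb, or 26.5% of the 2396 Mb of known autosomal sequence, and held 12.2% (95% interval 11.99 to 12.35%) of the peaks of library 1 and 11.3% (11.1 to 11.5%) of those of library 2, a mean of 11.7 ± 0.625% (SD, n = 2). This is 24.6 and 24.2 peaks per Mb, against 58.0 and 60.7 per Mb outside genes within 100 kb of a start and 67.3 and 72.7 per Mb inside genes. The difference between these kinds of territory was far larger than that between libraries. Both comparison territories include promoter peaks of protein-coding genes, which the rule keeps out of far territory. Part of the contrast therefore follows from the rule. Without peaks within 500 bases of any start, 27566 of 34810 and 29177 of 36390 peaks remained outside genes. Inside genes, 59388 of 78101 and 64069 of 84363 remained. At 50 to 100 kb, outside genes, there were 42.7 and 44.0 peaks per Mb. The far stretches were 39.3% repeat-masked with 39.2% GC, the rest of the autosomes 31.4% with 42.9% GC, and the part of these differences in the peak density was not tested. Of the far peaks themselves, 98.0% and 97.8% had at least 90% of their 50-base windows found only once in the genome, close to the 98.3% and 98.2% of the other peaks away from starts.

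Both the number of peaks and their strength went on falling with distance, beyond the 100 kb that define the far peaks. From 100 to 200 kb there were 34.5 and 34.6 peaks per Mb, with a median signal of 0.449 and 0.438. From 300 to 500 kb there were 23.8 and 23.3 per Mb, with 0.381 and 0.376. Over 1000 kb away, 10.1 and 8.76 peaks per Mb remained, with a median signal of 0.259 and 0.253, and in both libraries every step outward from 100 kb lowered both values. GC content in the 200 bases around the midpoint fell along the same path, from a median of 47.5% and 48.5% at 100 to 200 kb to 42.8% and 44.5% over 1000 kb, and its part in the decline was not tested. The threshold itself marks no break: the 902 and 904 far peaks at 100 to 110 kb had a median signal of 0.476 and 0.453, and the 1010 and 1050 peaks outside genes at 90 to 100 kb had 0.497 and 0.487. The middle 50% of distances lay between 154 and 424 kb in library 1 and between 153 and 411 kb in library 2, with medians of 245 and 240 kb.

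**Figure D1:**
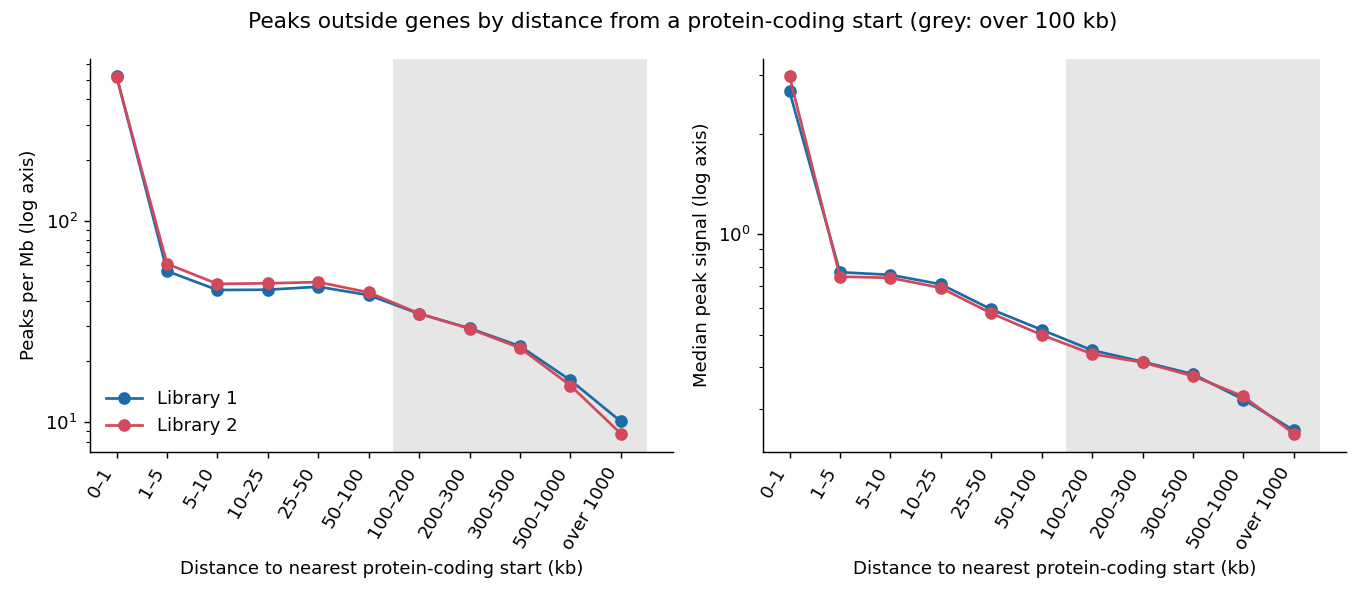
Peaks per Mb of territory (left) and median peak signal (right), both on log axes, for peaks outside genes in bins of distance to the nearest protein-coding start, with 1 line per library and the distances over 100 kb in grey. Within the grey zone density falls from 34.5 to 10.1 peaks per Mb in library 1 and from 34.6 to 8.76 in library 2.

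Far peaks were weak and low in CpG. Their signals had medians of 0.402 (library 1) and 0.395 (library 2), where other peaks over 500 bases from every start had 0.626 and 0.611 and promoter peaks 1.26 and 1.34. The ratio of far to other was 0.641 and 0.646, a mean of 0.644 ± 0.00365 (SD, n = 2). A signal over 2 was reached by 369 far peaks (2.36%) in library 1 and 453 (2.95%) in library 2, against 6.14% and 7.45% of the others. The windows held a median of 46.5% and 47.5% GC and a mean of 2.69 and 2.84 CpG dinucleotides, against 4.09 and 4.26 in the other peaks and 14.3 in promoter peaks of either library. Their median width was 180 bases in both libraries, and they covered 2.87 and 2.89 Mb. In the per-base tables the lowest false discovery rate in a far peak had a median of 4.8e-04 and 7.5e-04, and 54.4% and 52.0% of far peaks reached a value under 0.001. For the other peaks over 500 bases from every start the median was 1.9e-04 and 2.1e-04. Of these, 59.67% and 59.03% reached a value under 0.001.

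Most far peaks were found in both libraries. An overlap of at least 1 base with a peak of the other library was seen for 10600 far peaks of library 1, or 67.8% (67.01 to 68.49%), and for 10573 of library 2, or 68.8% (68.1 to 69.6%). Other non-promoter peaks overlapped more often, at 76.7% and 71.4%. With the shorter peak list this order held in library 1 (71.9% far, 79.8% other) and turned in library 2 (76.4% far, 74.6% other). The unshared far peaks were weak, with a median signal of 0.272 and 0.265 against 0.510 and 0.506 for shared ones, and only 6 and 5 of them exceeded a signal of 1.

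At equal signal the order reversed, and far peaks were shared more often than other peaks away from starts. Each library's peaks were divided into 10 classes of equal size by signal, and 31.3% and 30.1% of far peaks fell into the weakest class. In the fifth class 90.1% (88.3 to 91.7%) of far peaks and 79.4% (78.6 to 80.2%) of the others were shared in library 1, and 91.5% (89.8 to 93.1%) against 72.9% (72.0 to 73.8%) in library 2. Far peaks were higher in all 10 classes in both libraries, though in the 2 strongest classes nearly every peak was shared and the intervals overlap. With the other peaks weighted to the far peaks' spread over the classes, 60.7% and 55.2% of them were shared, against the 67.8% and 68.8% of far peaks. Far peaks were also wider at equal signal (a weighted mean of class medians of 174 against 150 bases in library 1 and 176 against 154 in library 2), so that each had more bases to overlap. With classes of signal and of width together, the other peaks came to 63.8% and 57.9%, so the difference became smaller in both libraries and remained.

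Footprints followed the same course. At least 1 footprint was overlapped by 64.9% (64.1 to 65.6%) of far peaks in library 1 and 70.1% (69.4 to 70.9%) in library 2, against 77.3% and 79.6% of the other non-promoter peaks. Within the fourth class of signal, however, 86.9% (85.0 to 88.6%) of far peaks and 77.0% (76.1 to 77.8%) of the others had one in library 1, and 88.1% (86.3 to 89.7%) against 80.2% (79.5 to 81.0%) in library 2. Weighted over classes of signal the others came to 60.1% and 65.1%, and over classes of signal and width to 63.6% and 68.0%, close to the far peaks. Footprints within far peaks numbered 20981 and 23525, or 7.90% and 7.43% of all autosomal footprints, had a median width of 9 bases and covered 8.14% and 9.24% of far peak sequence. Where a far region was matched between libraries, 47.3% (46.5 to 48.0%) of its library 1 footprints overlapped a library 2 footprint and 40.9% (40.2 to 41.6%) the other way round, below the 54.9% and 47.4% in matched regions of the other kind. This last comparison was not made at equal signal, and the part of signal in it was not tested.

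**Figure D2:**
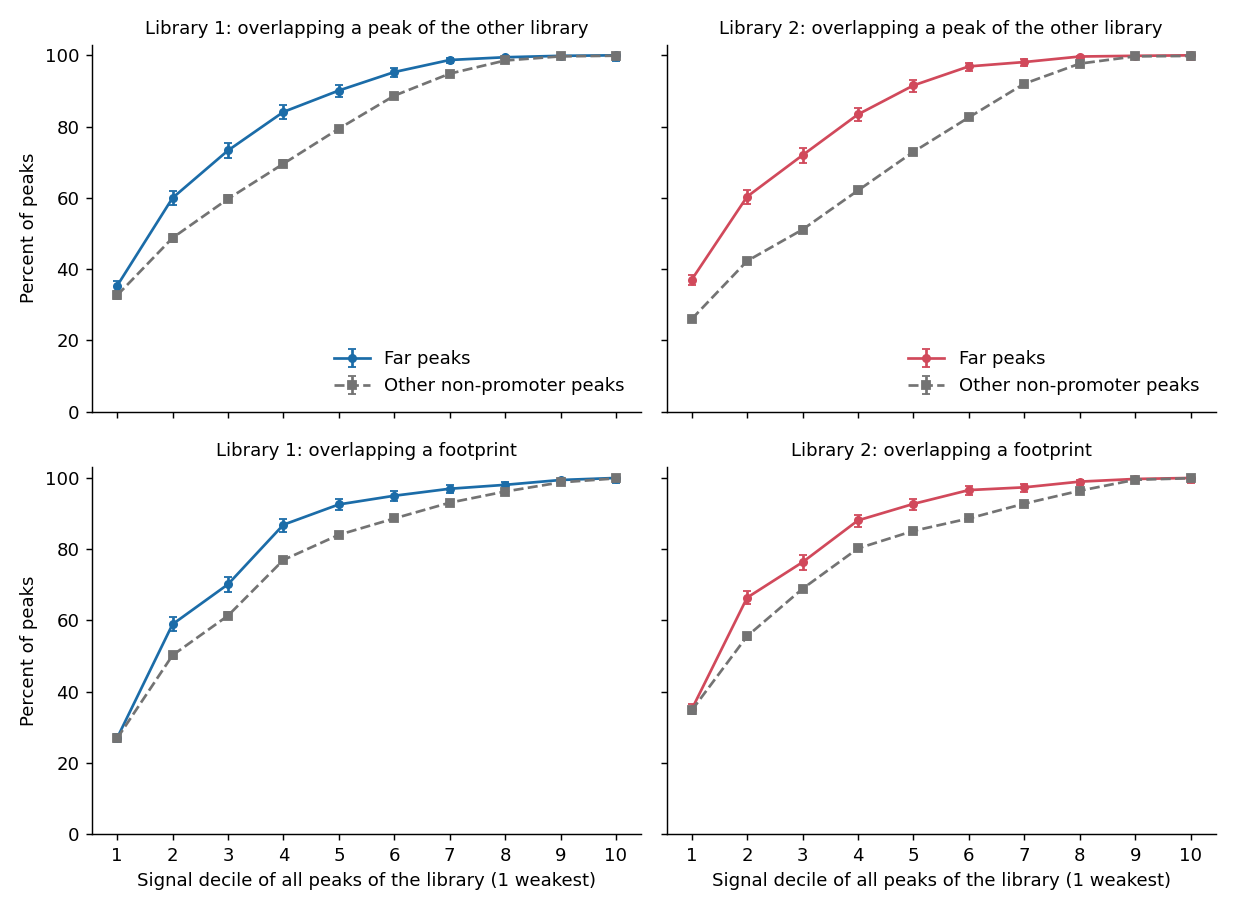
Percent of peaks overlapping a peak of the other library (top) and a footprint of their own library (bottom) by signal class of all autosomal peaks, from 1 (weakest) to 10, for far peaks (coloured) and other non-promoter peaks (grey), with exact binomial 95% intervals. Far peaks lie above the others in the middle classes of both libraries, for example 90.1% against 79.4% shared in the fifth class of library 1.

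Each other's strongest overlapping peaks were taken as matched, which gave 10368 far pairs. Their signals followed each other closely: across pairs, which share a genome and are no independent replicates, Pearson's r of log2 signal was 0.874 and Spearman's rho 0.836, compared with 0.903 and 0.883 for other non-promoter pairs. The median log2 ratio of library 2 to library 1 was 0.01 with an SD over pairs of 0.46, and 346 pairs (3.34%) differed by more than 2-fold, 130 of them higher in library 2 and 216 in library 1. Of the other pairs, 1.57% differed by as much. These comparisons were not made at equal signal, and the part of the lower signal of far peaks in them was not tested.

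**Figure D3:**
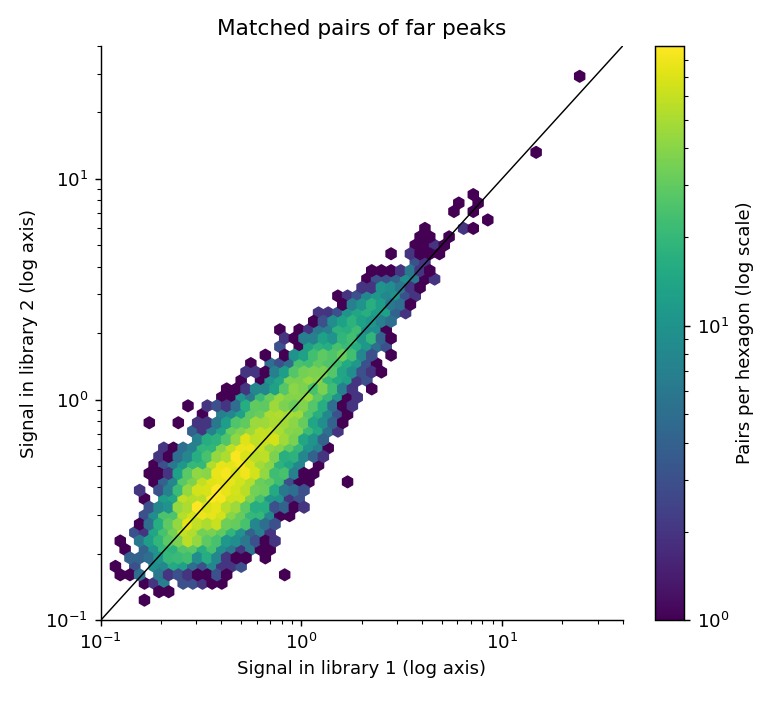
Signal of the 10368 matched far pairs in library 1 and library 2 on log axes, coloured by the number of pairs per hexagon, with the line of equal signal. Most pairs lie along the line below a signal of 1, and the 2 highest pairs, at 24.4 and 29.1 and at 15.3 and 13.4, stand apart from the rest.

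The strongest far pairs were of 3 kinds. The first kind is sequence that occurs more than once. At chr3:5860361-5860530, 110 kb from Gm8797, the signal was 24.4 and 29.1 and ranked 5 and 4 among all peaks of its library, but only 1.18% of its 50-base windows were unique and its most repeated window was found 7 times in the genome. At chr8:20122141-20122300, near Gm31371, the signal was 15.3 and 13.4 with 50.6% of windows unique. At chr1:102628161-102628320, 2.14 Mb upstream of Cdh20, a cadherin gene, it was 6.91 and 8.42 with 85.6% unique. Reads from such copies can be placed at more than 1 site, and the placement rule of the authors was not given in the sources used here. None of the 184 far pairs under 90% unique shared a 50-base window with the mitochondrial genome.

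The second kind lies at starts of genes that the annotation does not type as protein-coding. The pair at chr13:107890061-107890340 had a signal of 7.71 and 7.81, the smallest spread of the 10 strongest (7.76 ± 0.0721, SD, n = 2), and lies 137 bases from a start of Zswim6, a zinc finger gene that GENCODE M21 lists as a processed transcript; Smim15, the nearest gene typed as protein-coding, is 154 kb away. Starts of lincRNA genes lay within 500 bases of the pairs near Zfat (chr15:68363341-68363520, 7.5 and 6.99), Topaz1 (chr9:122572221-122572480, 6.64 and 6.01), Pcmtd1 (chr1:7398081-7398280, 6.88 and 5.96, and its neighbour at chr1:7397861-7398080, 6.14 and 5.80) and Ntrk2 (chr13:59145761-59145960, 5.22 and 4.96, 11.8 kb past the end of Ntrk2), the last of which encodes the receptor for the growth factor BDNF. These starts are a small part of the whole: 255 far peaks (1.63%) in library 1 and 256 (1.67%) in library 2 lay within 500 bases of any annotated start, of which 152 and 139 were lincRNA starts. They made up 18 of the 100 strongest pairs, against 1.67% of all 10368. Their median signal was 0.531 and 0.512, against 0.395 in either library for the remaining far peaks, and they held a mean of 5.43 and 5.61 CpG against 2.64 and 2.79.

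The third kind is unique sequence away from any start. At chr12:29291021-29291340, 237 kb upstream of Myt1l, which encodes a neuronal zinc finger factor, the signal was 8.13 and 6.62, with 5 and 7 footprints. The regions near Atp23 (chr10:126511601-126511820, 6.01 and 7.53), Clvs1 (chr4:9135921-9136080, 5.70 and 6.95) and Nfatc2 (chr2:168440901-168441180, 4.72 and 5.11) belong here too, and their sequences are among those printed above. The pairs farthest from any protein-coding start were weak by comparison. The 3 farthest lie on chromosome 14 between the protocadherin genes Pcdh20 and Pcdh9, up to 2.60 Mb from a protein-coding start (1724 kb past the end of Pcdh9), with mean signals of 0.235 ± 0.0431, 0.212 ± 0.0401 and 0.191 ± 0.00875 (SD, n = 2), and the 2 next, 2.24 Mb from Celf4 and 2.22 Mb from Pik3c3, had 0.345 ± 0.122 and 0.565 ± 0.0485. The second of the 5 lies wholly in repeat-masked sequence with 72.0% of its windows unique.

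The pairs richest in footprints were not the strongest ones. The pair with the most footprints over both libraries, at chr15:69104821-69105220, 175 kb from the start of Khdrbs3 and 3.61 kb past its end, held 10 and 12 footprints at a signal of 0.681 and 0.684. Khdrbs3 encodes an RNA-binding splicing regulator. The next was 1.26 Mb upstream of Klhl29 (chr12:6638801-6639300), with 13 and 8 footprints at 2.86 and 2.47. Pairs near Klf4 (chr4:55651161-55651700, 12 and 7 footprints), Fam19a2 (chr10:123840221-123840680, 9 and 8) and 2410131K14Rik (chr5:118381101-118381660, 9 and 8) followed. These 5 regions were 400 to 560 bases wide, over 2 times the median far peak.

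Among far peaks without a counterpart, the strongest of library 1 lay near Lpp (chr16:25058921-25059180), 214 kb away, with a signal of 1.86 and 4 footprints, and a peak of library 2 began or ended 60 bases from it. The next were near Foxn3, Tmem132e, Pdcd6ip and Ttc6, with signals between 1.07 and 1.18. In library 2 the strongest lay near Cobl (chr11:12811501-12811740) at 2.02, followed by peaks near Ppargc1a, Nfatc2, N6amt1 and Cysltr2 between 1.01 and 1.20. Of these 10 peaks, 5 directly adjoined a peak of the other library without sharing a base with it.

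Some far pairs lay close together. The median gap between neighbouring pairs was 32.1 kb, and 35.3% of pairs had another within 5 kb. Chaining pairs at most 10 kb apart gave 7440 groups, of which 5511 were single pairs and 93 held 5 or more. The largest chain had 12 pairs in 33.4 kb, 112 to 145 kb from the start of Nphp4 and 51.3 to 84.5 kb past its end. Nphp4 encodes a protein of the primary cilium. Its signals ran from 0.558 to 2.89 in library 1 and from 0.475 to 2.25 in library 2. A chain of 11 pairs spanned 44.2 kb near 2410131K14Rik, and 10 pairs spanned 25.9 kb near Spry2, an inhibitor of growth factor signalling. The densest of the 6 largest chains was near Hivep2, a zinc finger gene, with 8 pairs in 8.98 kb, 241 to 249 kb from its start and 56.3 to 64.8 kb past its end, and signals up to 2.80 and 3.25. Another 8 pairs in 18.6 kb lay near Ntm, which encodes the neuronal adhesion protein neurotrimin, and 7 in 34 kb near Tmem132e.

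By position, 1853 of the 2529 protein-coding genes that border far territory were the nearest gene of at least 1 far pair, with a median of 2 pairs. Upstream and downstream sides were nearly equal, with 51.6% (50.6 to 52.6%) of pairs upstream of the nearest start. Celf4, an RNA-binding protein of neurons, had the most with 39 pairs, at signals of up to 2.40 and 2.82. It was followed by Nphp4 with 37, Khdrbs3 with 34, Auts2 and Pik3c3 with 33 each, Zfat with 32, Galc with 31, Tbl1xr1 with 30, Celf2 with 28 and Tenm4 with 27. Auts2 is known from neurodevelopmental disorders, Galc encodes the lysosomal enzyme galactosylceramidase, and Tenm4 a teneurin, an adhesion protein of neurons. Ajap1, Dad1, Epha4, Tox3, Xylt1 and Zfp608 had 26 each, Kcnj2 25, and Castor2, Slc4a3 and Sox9 24 each. Zeb2 also had 24 and was left out of the 20 by alphabetical order. These 20 genes held 5.57% of all far pairs.

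The amount of desert beside these genes differed, and per Mb the order changed. All far territory held 16.3 pairs per Mb. Celf4 borders 1.90 Mb and had 20.5 per Mb, while Pik3c3, with 2.27 Mb, had 14.5, below that average. Nphp4 had 95.8 per Mb in only 0.386 Mb, Xylt1 65.2, Zfat 53.7, Ajap1 50.4 and Auts2 48.7. Among the 136 genes with at least 1 Mb, where the median was 7.32 pairs per Mb, Khdrbs3 (28.0), Galc (27.9) and Celf2 (27.6) were densest, followed by Klhl29 (21.6), Tbl1xr1 (20.5), Celf4, Tenm4 (19.9), Rapgef2 (18.0), Reep3 (17.2) and Brinp1 (16.0). Khdrbs3 had 51 far peaks in library 1 and 47 in library 2, Galc 45 and 43, and Celf2 37 and 38, so both libraries gave a like count.

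**Figure D4:**
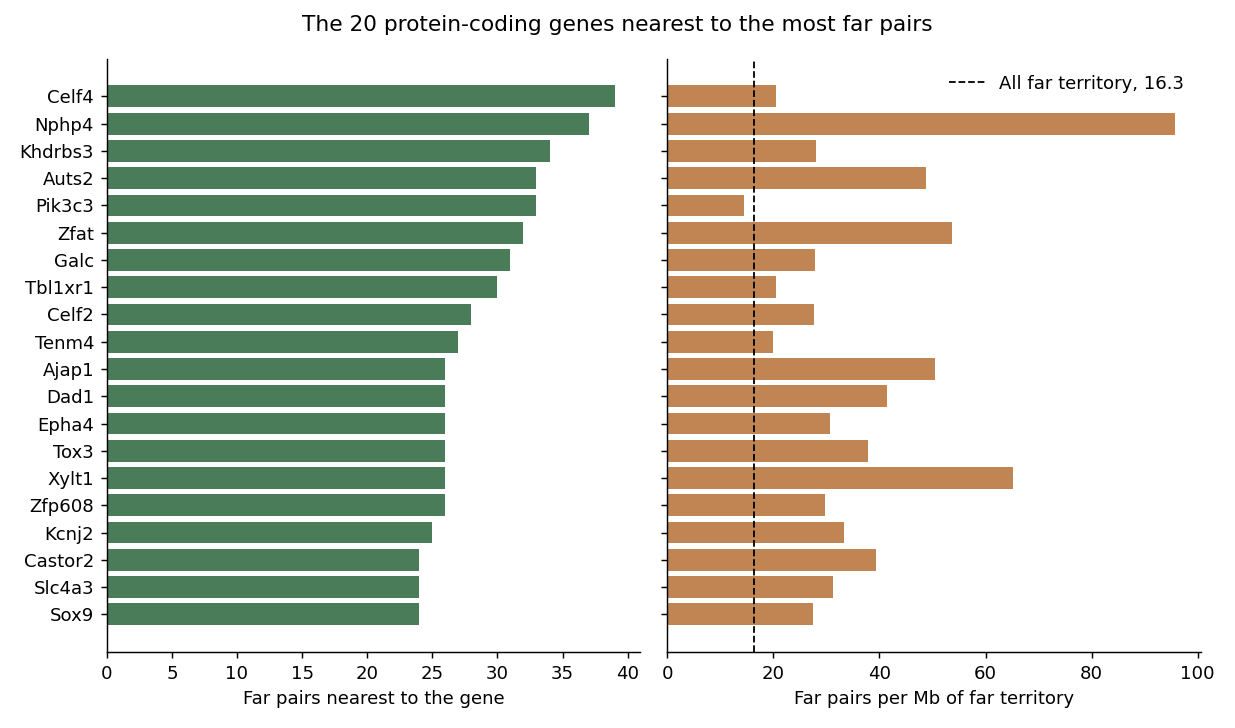
Number of matched far pairs (left) and pairs per Mb of far territory (right) for the 20 protein-coding genes nearest to the most pairs, with all far territory (16.3 per Mb) as a dashed line. Celf4 leads by number with 39 pairs, and Nphp4 by density with 95.8 per Mb. Zeb2, with 24 pairs as the last 3 shown, is not drawn.

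Gene lists differed in how much desert they border and in how densely it is filled. Of 40 cortical neuron factors, 31 border far territory (77.5%, against 12.2% of all protein-coding genes) and 26 had at least 1 pair (65%, against 8.92%). Among genes that border far territory this is 26 of 31, against 1853 of 2529 for all genes. The density of 17.9 pairs per Mb was near the 16.3 of all far territory. Zeb2 had 24 pairs at 14.5 per Mb, Tshz3 21 at 33.1, Lmo4 19 at 48.3, Tle4 18 at 24.1 and Nr2f1 17 at 15.2, all of them transcription factors or cofactors of cortical development. Of 18 genes listed as glial lineage factors 8 border far territory (44.4%, against the same 12.2%), and the 2.07 Mb they border held 60 pairs, or 29.02 per Mb. Far peaks also became sparser with distance from a start, and the part of desert size in this density was not tested. Lhx2 and Fezf2 are on both this list and that of cortical neuron factors. Sox9, an astrocyte factor, had 24 pairs at 27.4 per Mb, Sox6 13 at 47.3, Id4 11 at 49.1, Sox2 8 at 20.6 and Hes1 2 at 25.4.

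Cell adhesion genes border large deserts of low density. Of the 41 annotated on the autosomes, 36 border far territory (87.8%), in all 48.7 Mb, which held 295 pairs or 6.05 per Mb. Their median of 6.28 pairs per Mb lies beside the 7.32 of all 136 genes with at least 1 Mb of far territory, so the low density is near that of large deserts in general. Cdh11 had 22 pairs at 11.1 per Mb, Cdh8 19 at 7.19, Flrt2 18 at 6.05, Cdh2 16 at 10.6 and Cdh20 14 at 6.88. Factors and signals of other organs are a list of genes that the adult cortex mostly does not use. Of these 40 genes, 26 border far territory (65%, against 12.2% of all protein-coding genes). Bordering far territory was thus not particular to cortical neuron factors. The deserts of this list were not empty and had 15.1 pairs per Mb, near the 16.3 of all far territory. Tbx3 had 17 pairs at 48.5 per Mb, Foxa2 14 at 45.9, Bmp2 11 at 18.8, Irx5 9 at 46.2 and Gata3 8 at 8.26. Median signals of pairs ranged from 0.401 to 0.500 over the lists and libraries, all below the 0.517 and 0.512 of all far pairs.

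Matches to 15 consensus sequences were sought on both strands in the 200 bases around each midpoint, and in all 3179613 tiles of 200 bases of far territory as a baseline. CTCF and MEF2 were searched by their usual consensus, NFI as TTGGC, then any 5 bases, then GCCAA, and the others as AP-1 TGANTCA, CRE TGACGTCA, EGR GCGNGGGCG, E-box CAGNTG, RFX GTTGCCATG, SOX CCATTGT, POU ATGCAAAT, homeobox TAATTA, T-box AGGTGTGA, ROR ANTAGGTCA, forkhead TGTTTAC and ETS GAGGAAGT. CRE and AP-1 share letters without a match to one being a match to the other. A match is a description of the sequence and not a bound site.

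CTCF matches were more frequent in far peaks than in the territory around them and less frequent than in other peaks. They occurred in 420 far peaks of library 1 (2.68%, 2.44 to 2.95%) and 423 of library 2 (2.75%, 2.50 to 3.02%), a mean of 2.72 ± 0.0488% (SD, n = 2), against 0.0425% of far tiles. Other non-promoter peaks had them about 2 times as often, at 5.5% and 5.22%, and promoter peaks less often, at 1.55% and 1.50%. The lower share of far peaks remained in the 2 strongest signal classes, with 9.58% and 11.5% of far peaks against 14.4% and 15.9% of the others. Far peaks with a match were stronger, with a median signal of 0.803 and 0.919 against 0.395 and 0.388 without, were shared in 91.2% and 90.1% of cases, and 72.5% and 82.3% of the matches lay in a footprint. In other non-promoter peaks 86.8% and 90.4% of the matches did, a comparison not made at equal signal.

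AP-1 matches went the other way, with 17.2% (16.6 to 17.8%) and 13.9% (13.3 to 14.4%) of far peaks against 15.03% and 11.86% of other non-promoter peaks, 4.74% and 4.17% of promoter peaks and 6.05% of far tiles. In shared far peaks, AP-1 matches were in 18.85% and 17.5% under 45% GC and in 13.43% and 13.24% at 50% or more. The part of GC content in the difference from other peaks was not tested. POU matches stood at 2.33% and 2.22% of far peaks and 1.43% and 1.27% of the others, but at 2.20% of the tiles. Homeobox matches were likewise more frequent than in other peaks (5.45% and 4.17% against 3.77% and 2.94%) and less so than in the tiles (8.73%). That motif holds only A and T, far windows had the lower GC content given above, and its part in the difference was not tested. Matches for the activity-regulated factor EGR and for CRE, the site of CREB, were rarer in far peaks (0.243% and 0.280%, and 0.224% and 0.202%) than in other peaks (0.799% and 0.828%, and 0.442% and 0.397%). They were more frequent in far peaks than in the tiles, at 0.0151% for EGR and 0.0753% for CRE. Both consensus sequences hold CpG, of which far windows had fewer than other peaks. The part of CpG content in these differences was not tested. E-box matches, read by neuronal helix-loop-helix factors, were in 56.57% and 55.04% of far peaks, 54.8% and 53.8% of the others and 33.5% of tiles. RFX matches were in 1.12% and 0.866% of far peaks, 1.11% and 0.902% of the others and 0.174% of tiles. Of the RFX matches in far peaks 34.1% and 39.1% lay in footprints, against 50.2% and 52.6% in the others, not compared at equal signal. SOX, forkhead and ROR matches were less frequent in far peaks than in the tiles in both libraries, ETS, T-box, MEF2 and NFI matches more frequent.

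**Figure D5:**
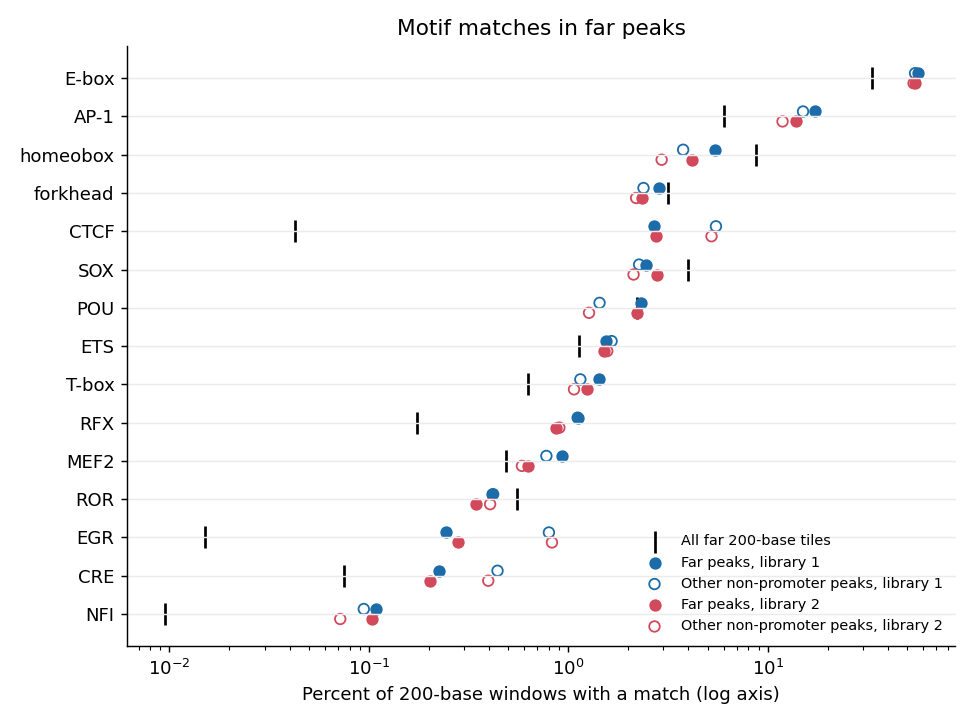
Percent of 200-base windows with a match to each of 15 motifs (log axis) in far peaks (filled), other non-promoter peaks (open) and all tiles of far territory (black bars), by library. CTCF matches are in 2.68% and 2.75% of far peaks, 5.5% and 5.22% of the others and 0.0425% of tiles.

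The far peaks of the libraries differed in motif content where they did not overlap. AP-1 matches were in 17.9% (16.83 to 18.96%) of unshared far peaks of library 1 and 9.42% (8.60 to 10.3%) of those of library 2, and in 16.9% and 15.9% of shared ones. Unshared far peaks of library 1 had a lower GC content than those of library 2 (median 44.5% against 48.0%), and the difference in AP-1 was present in each class of GC: 20.9% against 10.8% under 45% GC, 17.3% against 11.2% from 45 to under 50%, and 11.6% against 6.78% at 50% or more. Matched far pairs with an AP-1 match leaned to library 1, with a median log2 ratio of library 2 to library 1 of -0.17 (1762 pairs) against 0.05 without one, and those with a CTCF match leaned to library 2, at 0.23 (383 pairs). The ratio also moved with GC content, with Pearson's r of 0.241 across all far pairs. Within the 3 classes of GC, from low to high, the median with an AP-1 match was -0.25, -0.18 and -0.03 against -0.10, 0.07 and 0.14 without, and the median with a CTCF match was 0.07, 0.25 and 0.33 against -0.14, 0.02 and 0.11, so both leanings were present in each class. Among unshared far peaks, MEF2, with 1.09% against 0.376%, RFX, with 1.19% against 0.355%, and homeobox, with 6.997% against 3.487%, shared the direction of AP-1. They did so within each class of GC, though the intervals for MEF2 overlapped at 45% GC and above and those for RFX and homeobox at 50% and above. In matched pairs MEF2 went the other way at 50% GC or more (median 0.47 with a match, 12 pairs, against 0.12 without). Homeobox pairs there were nearly equal, at 0.11 against 0.12. Other non-promoter peaks showed the same split, with AP-1 in 18.2% and 8.07% of unshared peaks, so it is not particular to far ones. With 1 library on each side, a difference between tissue samples and one between preparations cannot be told apart.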

How the data were processed

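DNase-seq libraries of 1 group were analysed from the processed files. Per the deposited readme files, the peaks, footprints and per-base tables of each library were made by the authors from that library's own alignments on mm10. Aligner, peak caller, versions and thresholds were not given in the sources used here. Signal values, 1 per peak, come from the narrowPeak signal column as the authors deposited it, with no normalization stated. The deposited per-base tables give a false discovery rate, a q-value, and list values under 0.05, and the deposited footprints have the q-value 0.01 in every line.

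The longer of the 2 deposited peak lists was used. Midpoints were placed in GENCODE M21 genes and their distances taken to all protein-coding starts, with Python 3.11.15, numpy 2.4.6, pandas 2.3.3, scipy 1.17.1, numba 0.67.0 and matplotlib 3.10.9. Promoter peaks lay within 500 bases of any start. Windows of 50 bases were counted on both strands of the whole genome. Interval, window and motif code was tested on simulated data. Named were the 10 strongest pairs by mean rank, the 10 strongest with unique sequence, the 5 farthest, the 5 with most footprints, the 5 strongest unshared peaks per library, the 20 genes with most pairs, the 10 densest with at least 1 Mb, and 5 members per gene list; the chains and receptor loci were chosen after their values were seen. The members, gene lists and motifs were chosen with earlier results of these data known.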

Additional observations from a re-analysis of the deposited data

How the results depend on the processing

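The far share of peaks (11.7%) was 16.9% with a distance of over 50 kb, 7.08% with over 200 kb, 2.56% with distances taken from starts of every annotated gene and 9.67% with the shorter peak list; leaving out either library gave 11.3 to 12.2%. The ratio of far to other signal (0.644) was 0.631 against peaks outside genes within 100 kb, 0.691 with the shorter list and 0.638 without far peaks at any annotated start, an alternative chosen after seeing the data; single libraries gave 0.641 to 0.646. The shared percentage (68.3%) was 54.9% with an overlap of at least 50% of both peaks and 74.2% with the shorter list, and 67.8 to 68.8% in single libraries. The footprint percentage (67.5%) was 87.3% with the shorter list, and 64.9 to 70.1% in single libraries. The CTCF percentage (2.72%) was 2.62% in 100 bases, 2.85% in 400 bases and 4.47% with the shorter list, and 2.68 to 2.75% in single libraries. Limiting far peaks to unique sequence, run for the signal ratio, the shared and the footprint percentage, moved none of these 3 beyond the spread between libraries. At equal signal, far peaks were shared more often in at least 9 of 10 classes under each list and overlap tried. Why values moved was not tested. No paired analysis was possible because there is 1 group. With 2 libraries and unknown depth, a site absent from a list may have been open below its threshold.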

Other observations

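Immunoglobulin and T cell receptor genes are not typed as protein-coding in the annotation, so open sites between them count as far. The T cell receptor alpha and delta locus (chromosome 14, 1.80 Mb) held 36 far peaks in library 1, 42 in library 2 and 34 matched pairs, with signals of up to 2.22 and 2.53. Dad1, a subunit of the oligosaccharyltransferase beside that locus, was the nearest protein-coding gene of 26 of them, which are all of the 26 pairs given for Dad1. The immunoglobulin kappa locus (3.17 Mb) held 19 pairs and the heavy chain locus (2.76 Mb) 10, the T cell receptor gamma locus 3, the beta locus 1 and the lambda locus none. Starts of T cell receptor variable genes lay within 500 bases of 13 far peaks in library 1 and 15 in library 2.

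Far peaks per Mb of far territory differed between chromosomes, from 20.3 on chromosome 14 to 30.99 on chromosome 13 in library 1, and from 18.9 to 30.5 on the same chromosomes in library 2.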
